A study of Mus musculus with 21 samples.

Results

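Endoplasmic reticulum (ER) stress and chaperone genes were followed in nascent RNA of mouse cortical cultures: Hspa5, Hsp90b1, Calr, Pdia4, Xbp1, Atf4, Ddit3, Herpud1, Creld2 and Manf. The set was fixed by name, as 10 of the 24984 genes of a whole-gene count table, and all 10 were among the 16959 genes with enough counts to be tested. The assay was BrU-seq: bromouridine taken up by the cells marks newly made transcripts, which are then captured and sequenced, so that values follow transcription in a short window more closely than the amount of stored mRNA. Every culture came from CD1 mice at day 17 in vitro, stood for 30 min in the solvent DMSO or in 25 µM MM401, then received 40 µM bicuculline or water, with 2 mM bromouridine added for the final 30 min. The inhibitor MM401 keeps MLL1, an enzyme that methylates histone H3 at lysine 4, from binding its partner WDR5, and bicuculline blocks GABA-A receptors, which raises network activity. The 7 groups were DMSO with water at 4 h, DMSO with bicuculline at 1 h and at 4 h, MM401 with water at 1 h and at 4 h, and MM401 with bicuculline at 1 h and at 4 h. DMSO with water at 1 h was not analysed here, so both bicuculline times under DMSO were set against water at 4 h, and at 1 h the durations differ. Each group had 3 libraries, labelled as biological replicates of mixed sex, except MM401 with water at 4 h, which had 2 after the library labelled replicate 3 was left out: it held 316741 counts, 0.503% of the median of the others, and between 0 and 8 counts for each of the 10 genes.

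The ER folds secreted and membrane proteins with the help of chaperones, and when unfolded protein builds up there the cell starts the unfolded protein response. Its sensors act through transcription factors: IRE1 splices the Xbp1 mRNA into its active form, PERK slows translation and so favours translation of ATF4, which can induce Ddit3 (CHOP), and ATF6 is cut in the Golgi and moves to the nucleus. In neurons the same branches also serve the high load of receptors, channels and secreted factors. Because counts covered whole genes and nascent RNA, neither the splicing of Xbp1 nor the translation of Atf4 could be seen here.

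The DNA just before the start sites is shown first, because ER stress genes are classically recognised by short elements bound by ATF6, XBP1 and ATF4. RefSeq promoter sequences on GRCm38.p6 matched 9 of the 10 genes by symbol, all but Manf. Of these, 4 of 9 held an ER stress element, spelled CCAAT and CCACG with 9 bases of any kind between them, within the 250 bases before the start and the first 50 after it. The same spelling occurred in 0.119% of all 32851 promoters of that length. Herpud1 alone of the 9 held the related element II, ATTGG and CCACG with 1 base between them, which 0.0365% of all promoters held, and also a C/EBP-ATF response element (TGATGNAA), which 3.97% held. No match to the unfolded protein response element TGACGTGG or to the cAMP response element TGACGTCA was found in the 9, against 0.676% and 1.79% of all promoters. Both strands were searched, no match overlapped another, and element II was added after the sequences were seen. These are matches of letters, not measured sites. The spellings were already known from ER stress genes, so these shares describe the set and test nothing about it. The 5 promoters with a match are printed over the 250 bases before the start, in the direction of transcription, with matches in capitals. They lie at chr2:34771840-34772089 on the plus strand (Hspa5), chr10:86705445-86705694 on the minus strand (Hsp90b1), chr8:84846932-84847181 on the minus strand (Calr), chr8:94386179-94386428 on the plus strand (Herpud1) and chr15:88819396-88819645 on the plus strand (Creld2).
Hspa5: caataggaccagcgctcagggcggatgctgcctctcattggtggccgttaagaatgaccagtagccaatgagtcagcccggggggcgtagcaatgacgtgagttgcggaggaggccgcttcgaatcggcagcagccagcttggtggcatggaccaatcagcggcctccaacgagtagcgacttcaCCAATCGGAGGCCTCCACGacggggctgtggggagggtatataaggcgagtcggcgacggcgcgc
Hsp90b1: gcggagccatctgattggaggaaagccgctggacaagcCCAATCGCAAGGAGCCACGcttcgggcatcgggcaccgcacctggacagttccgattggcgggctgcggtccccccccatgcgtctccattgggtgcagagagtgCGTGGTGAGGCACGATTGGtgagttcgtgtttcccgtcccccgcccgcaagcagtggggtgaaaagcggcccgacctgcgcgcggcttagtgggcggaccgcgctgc
Calr: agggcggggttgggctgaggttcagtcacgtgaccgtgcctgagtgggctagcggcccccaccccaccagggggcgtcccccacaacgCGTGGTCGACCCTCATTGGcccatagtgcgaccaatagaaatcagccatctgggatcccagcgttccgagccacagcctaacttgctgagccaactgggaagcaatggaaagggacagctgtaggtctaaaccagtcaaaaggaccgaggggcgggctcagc
Herpud1: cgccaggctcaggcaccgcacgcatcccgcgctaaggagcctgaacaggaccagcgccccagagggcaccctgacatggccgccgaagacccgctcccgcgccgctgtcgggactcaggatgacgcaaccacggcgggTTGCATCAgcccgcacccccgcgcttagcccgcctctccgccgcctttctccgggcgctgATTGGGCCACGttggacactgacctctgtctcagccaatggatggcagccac
Creld2: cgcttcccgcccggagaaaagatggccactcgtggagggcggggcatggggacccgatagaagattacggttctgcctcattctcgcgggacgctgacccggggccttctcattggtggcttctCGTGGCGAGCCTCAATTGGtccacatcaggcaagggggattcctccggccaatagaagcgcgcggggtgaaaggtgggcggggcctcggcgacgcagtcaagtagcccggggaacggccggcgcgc
The element began 65 bases before the start in Hspa5. Hsp90b1 held one on each strand, with outer ends 212 and 107 bases before the start. The matches in Calr and Creld2 were on the opposite strand, from 162 and from 126 bases before the start. In Herpud1 element II lay from 52 to 42 bases before the start, and the C/EBP-ATF match lay further upstream, from 112 to 105 bases before it.

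Levels are given as normalised read counts (CPM), that is counts divided by each library's total and edgeR's TMM factor. The 20 libraries held 49886348 to 87939384 counts in genes, and the 10 genes had between 101 (Creld2) and 10795 (Hsp90b1) raw counts in a library. Per kilobase of gene the highest mean over the 20 libraries was that of Hspa5, which encodes BiP, the main ER Hsp70 chaperone, at 13.7 CPM per kb. Atf4 followed at 12.1, Calr, the lectin chaperone calreticulin, at 8.99, and Hsp90b1, the ER Hsp90 known as Grp94, at 6.81 CPM per kb. Ddit3, at 3.42 CPM per kb, and Xbp1, at 2.48, came next, then Herpud1, a membrane protein of ER-associated degradation, at 1.86 and Manf, an ER-resident and secreted neurotrophic factor, at 1.80. The lowest were Pdia4, a protein disulfide isomerase, at 0.875 CPM per kb and Creld2, another ER-resident protein induced by ER stress, at 0.349. The ranges of Hspa5 (7.68 to 22.99 CPM per kb) and Atf4 (8.82 to 15.4) overlapped over the 20 libraries, as did those of Herpud1 (1.41 to 2.18) and Manf (1.17 to 2.54). Between the 7 group means Hspa5 moved most, by 2.21 times, and Creld2 least, by 1.26 times.

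**Figure D1:**
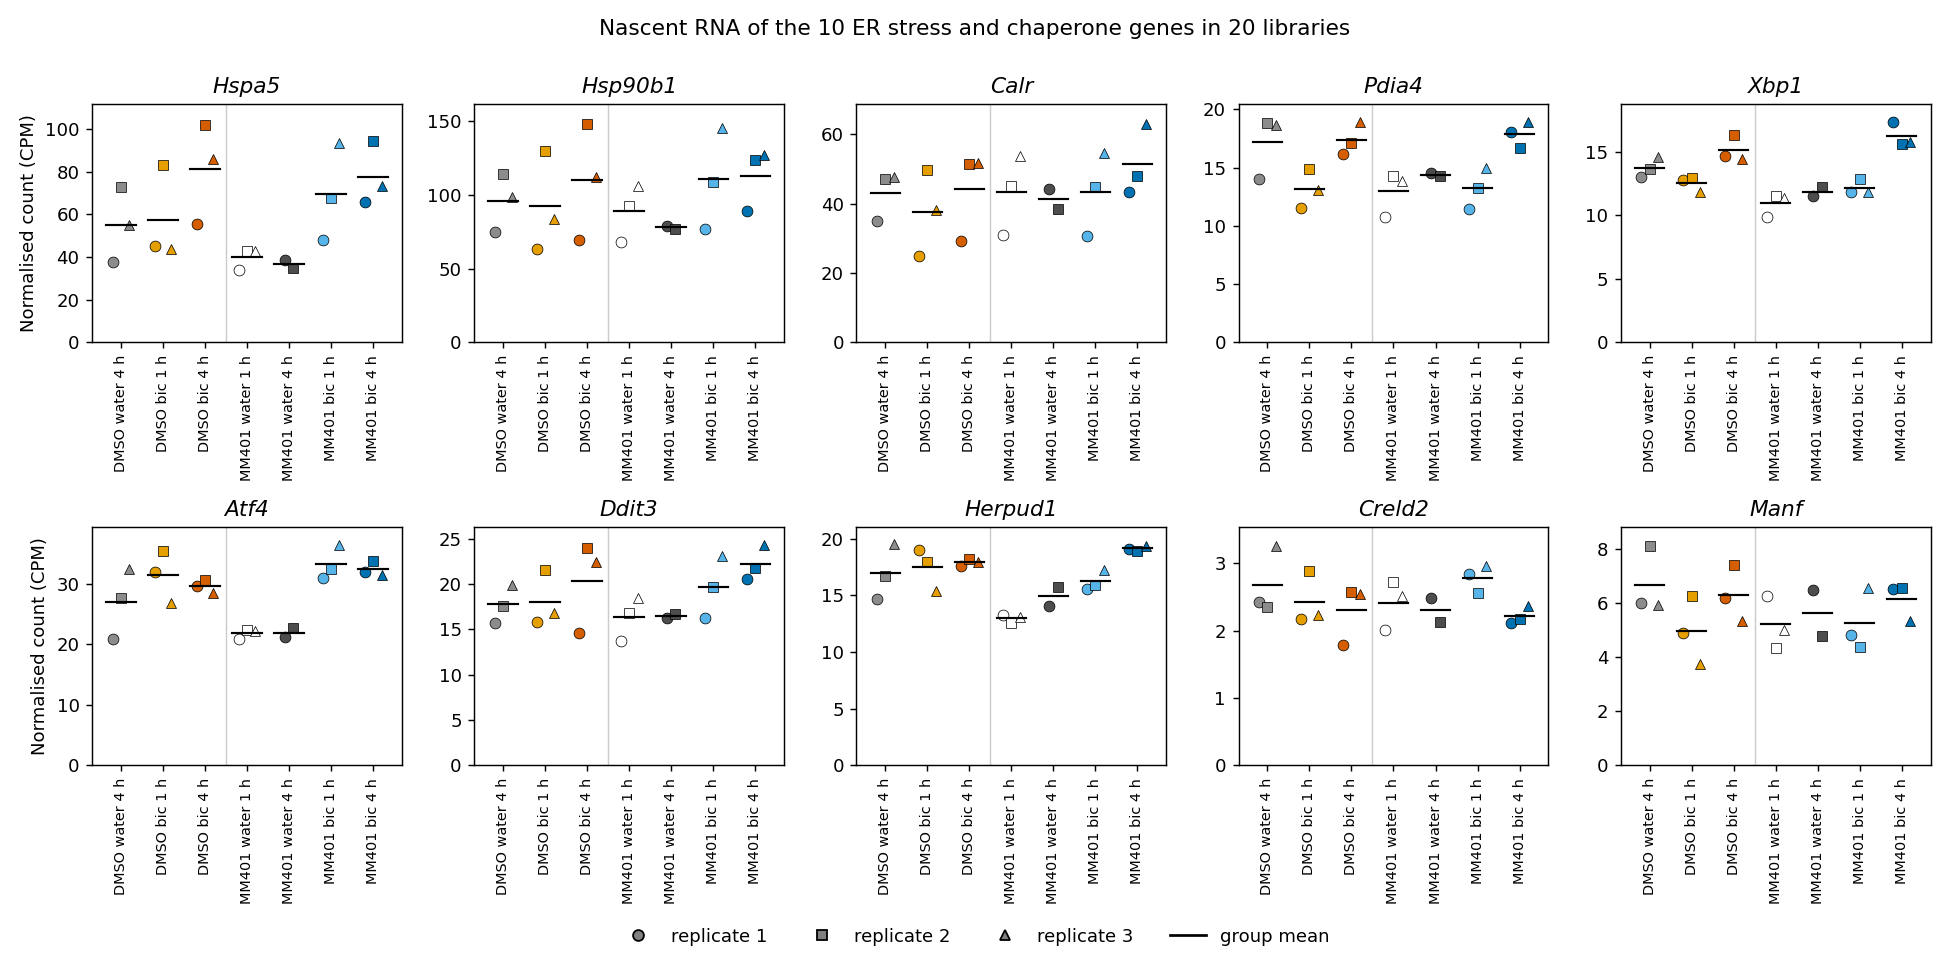
Normalised read count (CPM, linear axis from 0) of each gene in the 20 libraries, in 7 groups of 3 libraries (2 for MM401 with water at 4 h); each point is a library, its shape is the replicate number and the bar is the group mean. Atf4 in MM401 with bicuculline sits at 31.1 to 36.4 CPM at 1 h and 31.5 to 33.9 at 4 h, all above the 20.9 to 22.7 CPM of MM401 with water, while Calr and Hsp90b1 spread widely within groups.

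Markers of neurons and astrocytes were well detected, and those of blood vessels and fibroblasts were near 0. The summed CPM of 6 neuronal markers ran from 4538 to 5687 in DMSO with water and from 6707 to 7210 in DMSO with bicuculline at 4 h, and in MM401 at 4 h from 5357 to 5502 with water and from 6060 to 6633 with bicuculline. At 1 h the 6 neuronal markers summed to 5537 to 5933 in DMSO with bicuculline, 5360 to 6391 in MM401 with bicuculline and 4582 to 4860 in MM401 with water. The 6 astrocyte markers summed to 1559 to 1633 CPM with bicuculline against 1068 to 1327 with water at 1 h under MM401, and to 1299 to 1375 against 1080 to 1192 at 4 h. Under DMSO the astrocyte sums with bicuculline, 1514 to 1652 at 1 h and 1307 to 1435 at 4 h, overlapped those with water (1111 to 1579). The 6 microglial markers summed at 4 h to 31.1 to 36.8 CPM with bicuculline against 26.1 to 30.2 with water under DMSO, and to 35.4 to 40.0 against 25.1 to 28.5 under MM401, and they overlapped at 1 h. The 4 endothelial markers summed to at most 3.03 CPM and the 4 fibroblast markers to at most 5.24, with Cldn5 and Lum at no more than 3 and 5 raw counts and Mog, Tmem119 and Cdh5 at no more than 12. The 3 GABAergic markers summed to 317 to 378 CPM over the 3 water groups and to 483 to 675 over the 4 bicuculline groups, and the 6 oligodendrocyte lineage markers to 134 to 150 and 156 to 180, in both cases without overlap. The neuronal sums were higher with bicuculline than with the water they were set against, except that they overlapped at 1 h under DMSO. The part of these markers in the results below was not tested. In such bulk libraries fewer cells of a type and less RNA per cell cannot be told apart.

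Bicuculline against water was the first question: does transcription of the ER stress genes change when network activity is raised? A gene was called when its adjusted p-value, by edgeR's quasi-likelihood test with Benjamini-Hochberg adjustment over the 16959 genes, was under 0.05. Under DMSO, 1 of the 10 genes was lower at 1 h (Pdia4) and none was called at 4 h. Under MM401, 2 of 10 were higher at 1 h (Atf4 and Herpud1) and 4 of 10 at 4 h (Hspa5, Xbp1, Atf4 and Herpud1). These counts stand beside a very broad response: 44.6% of all tested genes were called at 1 h and 49.2% at 4 h under DMSO, and 39.9% and 44.6% under MM401. By direction, 20% of all genes were called higher and 24.5% lower at 1 h under DMSO, and 23.7% and 25.5% at 4 h. Under MM401 it was 18.1% higher and 21.8% lower at 1 h, and 23% and 21.7% at 4 h. In all 4 comparisons the share of members called in either direction was below that of all genes. Counting higher calls alone, 4 of 10 at 4 h under MM401 stood above the 23% of all genes, and 2 of 10 at 1 h under MM401 stood near the 18.1%. Beside the 0 of 10 for DMSO at 4 h, edgeR gave 0 of 10 at an unadjusted p under 0.05, where 9304 of all 16959 genes were, and DESeq2 called 0. The median log2 fold change over the 10 genes was -0.09 and 0.10 at 1 h and 4 h under DMSO, where all genes had -0.04 and -0.02. Under MM401 it was 0.24 and 0.40, where all genes had -0.0018 and 0.02. The sign under DMSO depended on the scaling, with -0.29 and -0.18 at 1 h and 4 h for plain library sizes and 0.07 and 0.29 once each library's trend with gene length was removed. Under MM401 these medians were 0.03 and 0.32 with plain library sizes and 0.32 and 0.38 with the length trend removed.

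**Figure D2:**
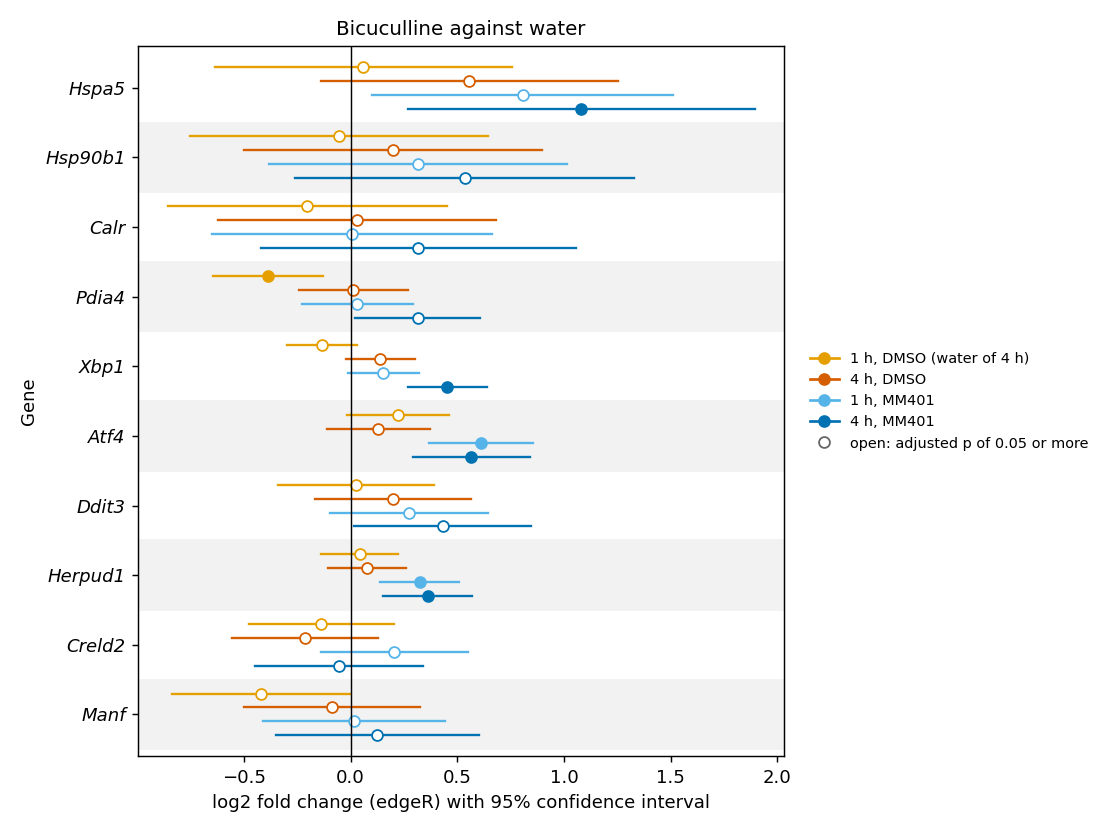
Log2 fold change of bicuculline against water for each gene (horizontal axis) with its 95% confidence interval, from edgeR's fit of the 20 libraries, for 1 h and 4 h under DMSO (both against water at 4 h) and under MM401 (each against water of its own time); filled points have an adjusted p under 0.05. Under MM401 the points of Atf4 (0.61 and 0.57) and Herpud1 (0.32 and 0.36) are filled at both times, and the intervals of Hspa5, Hsp90b1 and Calr are the widest.

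Among the transcription factors, Atf4 had the clearest change. In MM401 with water Atf4 stood at 20.9, 22.4 and 22.2 CPM at 1 h and at 21.2 and 22.7 CPM at 4 h. In MM401 with bicuculline it stood at 31.1, 32.5 and 36.4 CPM at 1 h and at 32.0, 33.9 and 31.5 CPM at 4 h. Every bicuculline library lay above every water library. Atf4 rose by 0.61 ± 0.12 on the log2 scale at 1 h (SE, 3 against 3 libraries, 1.53-fold, edgeR adjusted p = 0.000305) and by 0.57 ± 0.13 at 4 h (3 against 2, 1.48-fold, edgeR adjusted p = 0.00168), and both calls held without each library in turn. Under DMSO, Atf4 was at 20.8, 27.6 and 32.5 CPM with water, 32.0, 35.5 and 26.9 with bicuculline at 1 h, and 29.6, 30.6 and 28.5 at 4 h. There the groups overlapped, since the water libraries alone spanned 20.8 to 32.5 CPM, and the differences of 0.22 ± 0.11 (edgeR adjusted p = 0.126) and 0.13 ± 0.11 (adjusted p = 0.37) did not pass. The call for DMSO at 1 h depended on single libraries, with 0.34 (edgeR adjusted p = 0.0217) without replicate 3 of bicuculline and 0.39 (adjusted p = 0.00494) without replicate 3 of water. At 4 h under DMSO, Atf4 was at 0.26 (edgeR adjusted p = 0.047) without replicate 3 of water and at -0.02 without replicate 1 of water.

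Xbp1, whose product drives chaperone and degradation genes once its mRNA is spliced, was called at the later time. In MM401 at 4 h it was at 11.5 and 12.2 CPM with water and at 17.3, 15.6 and 15.8 CPM with bicuculline, with no overlap. It rose by 0.45 ± 0.09 (log2, SE, 1.37-fold, edgeR adjusted p = 0.000301), a call that held without each library in turn. At 1 h under MM401 it was at 9.86, 11.5 and 11.4 CPM with water and at 11.8, 12.8 and 11.8 with bicuculline, a difference of 0.15 ± 0.08 that did not pass (edgeR adjusted p = 0.134). Under DMSO Xbp1 was at 13.0, 13.6 and 14.5 CPM with water, 12.8, 12.9 and 11.8 with bicuculline at 1 h, and 14.7, 16.3 and 14.4 at 4 h. All 3 libraries at 1 h lay below the 3 water libraries, a pattern that 26.1% of all tested genes showed. The difference was -0.13 ± 0.08 (edgeR adjusted p = 0.179), but -0.33 and called with plain library sizes (adjusted p = 0.0106) and 0.063 with the length trend removed (adjusted p = 0.562). At 4 h it was 0.14 ± 0.08 (adjusted p = 0.147), with overlap between the groups.

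Ddit3, which encodes CHOP and is known for its part in cell death under lasting ER stress, was not called in any of these 4 comparisons by edgeR with TMM scaling alone, and its calls under other settings follow. It was at 16.3 and 16.7 CPM in MM401 with water at 4 h and at 20.6, 21.8 and 24.3 CPM with bicuculline, which did not overlap, and the difference was 0.43 ± 0.20 (log2, SE, edgeR adjusted p = 0.0844). It passed with the replicate number as a block (0.36, edgeR adjusted p = 0.023) and with only these groups in the fit (0.41, adjusted p = 0.000738), by DESeq2 (0.42, adjusted p = 0.0358) and by edgeR with the length trend removed (0.39, adjusted p = 0.0488). Under DMSO the bicuculline libraries at 4 h, at 14.6, 24.0 and 22.4 CPM, lay on both sides of the water libraries at 15.8, 17.7 and 19.9 CPM. Without the library at 14.6 CPM, replicate 1, the difference of 0.20 became 0.38 (edgeR adjusted p = 0.043), and with the length trend removed it was 0.39 (adjusted p = 0.0272). At 1 h the differences were 0.02 ± 0.17 under DMSO and 0.27 ± 0.17 under MM401, with adjusted p of 0.925 and 0.231 by edgeR. With the replicate block and the length trend removed together, both were called, at 0.22 (edgeR adjusted p = 0.047) and 0.34 (adjusted p = 0.00389). Ddit3 overlaps Mars on the opposite strand, and since the use of strand in counting was not stated, reads of the pair cannot be told apart. Mars itself was at -0.30 ± 0.12 at 1 h under DMSO (edgeR adjusted p = 0.0404).

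Among the chaperones, Hspa5 had the largest differences under MM401. It also had the widest spread between replicates by the median coefficient of variation over the 7 groups. In MM401 with water it was at 34.1, 42.6 and 43.0 CPM at 1 h and at 38.7 and 34.8 CPM at 4 h. In MM401 with bicuculline it was at 47.8, 67.6 and 93.5 CPM at 1 h and at 65.8, 94.3 and 73.2 CPM at 4 h. All bicuculline libraries lay above all water libraries at both times. At 4 h Hspa5 rose by 1.08 ± 0.38 on the log2 scale (SE, 95% confidence interval 0.27 to 1.89, 2.12-fold, edgeR adjusted p = 0.0316). That call was lost without replicate 2 of bicuculline (0.92, edgeR adjusted p = 0.0888), without replicate 1 of water (1.14, adjusted p = 0.107) or without replicate 2 of water (0.98, adjusted p = 0.161), and with plain library sizes (1.00, adjusted p = 0.062). At 1 h the difference of 0.81 ± 0.33 missed the threshold (edgeR adjusted p = 0.0658), and it was 1.01 (adjusted p = 0.0346) without replicate 1 of bicuculline and 0.79 (adjusted p = 0.02) with the replicate number as a block. Under DMSO Hspa5 was at 37.6, 72.7 and 55.1 CPM with water, 45.3, 83.2 and 43.9 with bicuculline at 1 h, and 55.5, 102 and 86.0 at 4 h. The groups overlapped, and the differences were 0.06 ± 0.32 at 1 h and 0.56 ± 0.32 at 4 h (edgeR adjusted p = 0.898 and 0.174).

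Hsp90b1 and Calr, which fold glycoproteins and other ER clients alongside BiP, passed no test of bicuculline against water. Hsp90b1 was at 79.0 and 77.2 CPM in MM401 with water at 4 h and at 88.8, 123 and 127 CPM with bicuculline, without overlap. The difference was 0.54 with a 95% confidence interval of -0.26 to 1.33 (edgeR adjusted p = 0.262), so that these libraries could not show a change of that size. Calr ranged from 24.8 to 62.9 CPM over the 20 libraries, and its 4 differences ran from -0.20 ± 0.30 (DMSO at 1 h) to 0.32 ± 0.34 (MM401 at 4 h).

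Pdia4, which forms and reshuffles disulfide bonds, was the gene called lower. Under DMSO it was at 14.1, 18.8 and 18.7 CPM with water and at 11.5, 14.9 and 13.1 CPM with bicuculline at 1 h. The groups overlapped in 1 water library. Pdia4 was lower by 0.39 ± 0.12 on the log2 scale (SE, fold 0.764, edgeR adjusted p = 0.0146). The call was lost without replicate 1 of bicuculline (-0.30, edgeR adjusted p = 0.0832), replicate 2 of water (-0.29, adjusted p = 0.0899) or replicate 3 of water (-0.31, adjusted p = 0.072). At 4 h under DMSO it was back at 16.1, 17.1 and 18.9 CPM, a difference of 0.01 ± 0.12 from water. In MM401 at 4 h it was at 14.5 and 14.3 CPM with water and at 18.1, 16.7 and 18.9 CPM with bicuculline, which did not overlap, yet 0.31 ± 0.14 did not pass (edgeR adjusted p = 0.0738). It passed with the replicate number as a block (0.26, edgeR adjusted p = 0.0443) and with only these groups in the fit (0.29, adjusted p = 0.00818). Pdia4 contains the microRNA gene Mir704 on its own strand.

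Herpud1, the one gene of ER-associated degradation in the set, rose in the MM401 cultures at both times, as Atf4 did. It was at 13.3, 12.6 and 13.1 CPM with water and at 15.5, 15.9 and 17.2 CPM with bicuculline at 1 h, and at 14.1 and 15.7 against 19.1, 18.9 and 19.4 CPM at 4 h. No libraries overlapped at either time. Herpud1 rose by 0.32 ± 0.09 at 1 h (log2, SE, 1.25-fold, edgeR adjusted p = 0.00602), a call that held without each library in turn. It rose by 0.36 ± 0.10 at 4 h (1.28-fold, adjusted p = 0.00556), a call lost without replicate 1 of water (0.26, adjusted p = 0.117). With plain library sizes in place of TMM neither passed, at 0.11 (edgeR adjusted p = 0.486) and 0.29 (adjusted p = 0.0916). Under DMSO the 3 water libraries spanned 14.6 to 19.5 CPM and the 6 bicuculline libraries 15.4 to 19.0 CPM, with differences of 0.04 ± 0.09 and 0.08 ± 0.09 (edgeR adjusted p = 0.73 and 0.498).

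Creld2 and Manf were not called for bicuculline against water by edgeR with TMM scaling alone. Creld2 ran from 1.79 to 3.27 CPM over the 20 libraries, with differences from -0.21 ± 0.16 (DMSO at 4 h) to 0.21 ± 0.17 (MM401 at 1 h). Manf ran from 3.72 to 8.09 CPM, and its largest difference was -0.42 ± 0.20 at 1 h under DMSO (edgeR adjusted p = 0.0964), or -0.63 (adjusted p = 0.0229) without replicate 2 of bicuculline. With plain library sizes Manf was called lower at 1 h under DMSO (-0.61, edgeR adjusted p = 0.0203) and Creld2 lower at 4 h under DMSO (-0.50, adjusted p = 0.0269). Counting libraries without overlap over the 10 genes gave 0 all higher at 1 h and at 4 h under DMSO, 4 at 1 h under MM401 and 7 at 4 h under MM401. The background for such a pattern was 21.3% and 24.6% of all tested genes under DMSO, and 23.3% and 34.2% under MM401.

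How gene length was treated changed several of these results. Of the 10 genes, 8 are under 10 kb, from 2363 bases (Atf4) upward, the exceptions being Hsp90b1 (14605 bases) and Pdia4 (17373 bases). Genes under 10 kb took 4.18%, 5.26% and 5.93% of all counts in the DMSO water libraries but 3.85%, 4.27% and 3.87% in DMSO with bicuculline at 4 h. In MM401 they took 4.59% and 4.26% with water at 4 h and 4.59%, 4.63% and 4.92% with bicuculline at 4 h. At 1 h they took 4.78%, 4.83% and 4.23% in DMSO with bicuculline. In MM401 at 1 h it was 4.64%, 4.75% and 4.94% with water and 4.35%, 4.13% and 5.30% with bicuculline. Over the 20 libraries the log2 CPM of the 10 genes correlated with this share at -0.04 (Xbp1) to 0.52 (Creld2). When each library's trend with gene length was removed before the same edgeR fit, 5 of the 10 genes were called higher at 4 h under DMSO, where 23.1% of all tested genes were. They were Hspa5 (0.76 ± 0.27, adjusted p = 0.0339), Xbp1 (0.33 ± 0.08, adjusted p = 0.00119), Atf4 (0.33 ± 0.07, adjusted p = 0.00043), Ddit3 (0.39 ± 0.14, adjusted p = 0.0272) and Herpud1 (0.26 ± 0.07, adjusted p = 0.00541). At 1 h under DMSO, Atf4 (0.43 ± 0.07, edgeR adjusted p = 3.04e-05) and Herpud1 (0.22 ± 0.07, adjusted p = 0.0157) were then called higher, where 19.6% of all genes were, and Pdia4 was no longer called (-0.26 ± 0.11, adjusted p = 0.0518). Under MM401 Hspa5 (0.84, edgeR adjusted p = 0.0271) and Xbp1 (0.23, adjusted p = 0.0293) joined Atf4 and Herpud1 at 1 h. At 4 h under MM401 Pdia4 (0.33, edgeR adjusted p = 0.0298) and Ddit3 (0.39, adjusted p = 0.0488) joined the 4 genes already called. The backgrounds for these were 17.1% and 22.8% called higher. So the count of ER stress genes called under DMSO depended on how length was treated, while Atf4 and Herpud1 under MM401 were called higher both ways.

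**Figure D3:**
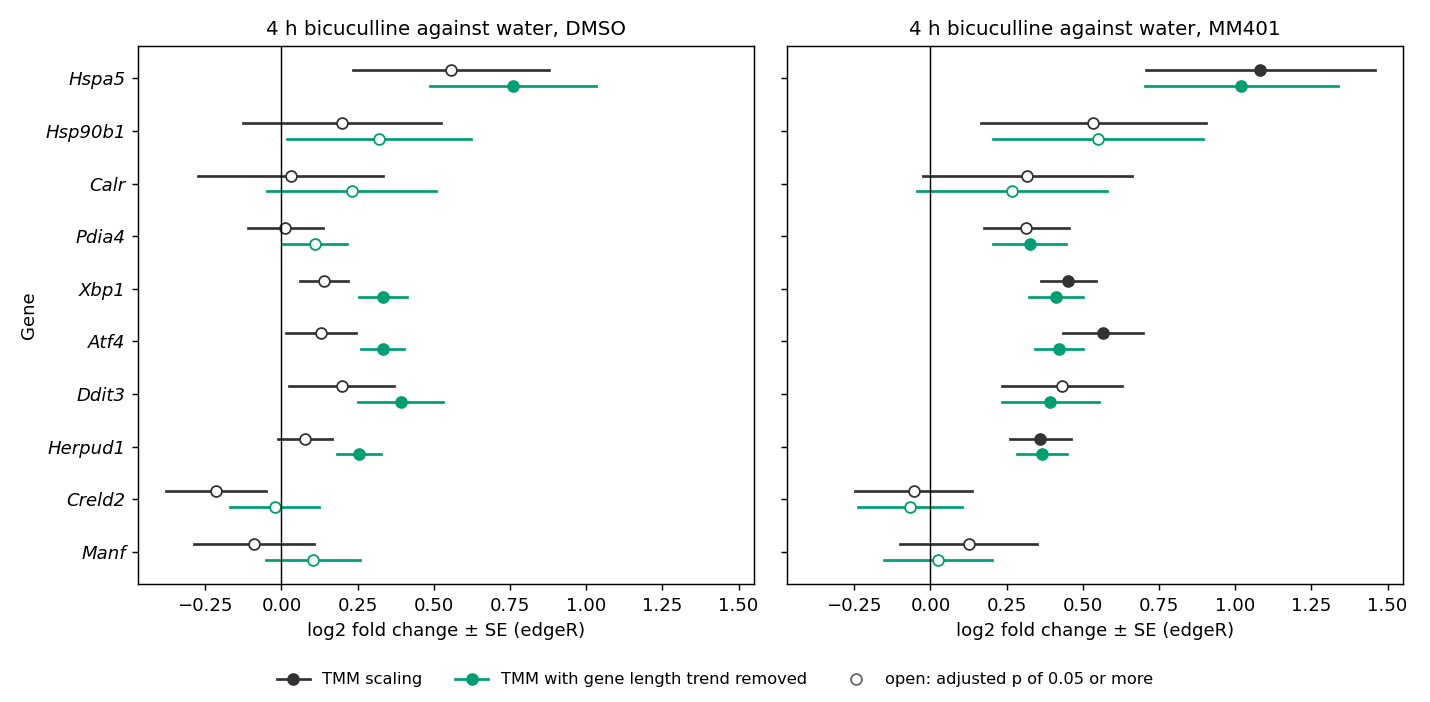
Log2 fold change ± SE of 4 h bicuculline against 4 h water for each gene, under DMSO (left) and MM401 (right), from edgeR with TMM scaling (dark) and with each library's gene length trend removed as well (green); filled points have an adjusted p under 0.05. Under DMSO no dark point is filled and 5 green points are (Hspa5, Xbp1, Atf4, Ddit3 and Herpud1), while under MM401 4 dark and 6 green points are filled.

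Comparing 4 h with 1 h of bicuculline asked whether the genes were still moving between the times. Pdia4 and Xbp1 were higher at 4 h under both pretreatments. Under DMSO 2 of 10 genes were called, both higher, against 34.2% of all genes called and 19.1% called higher. Pdia4 rose by 0.40 ± 0.12 (log2, SE, edgeR adjusted p = 0.0155) and Xbp1 by 0.27 ± 0.08 (adjusted p = 0.00919), and in both genes the 3 libraries at 4 h lay above the 3 at 1 h, as in 23.4% of all genes. Under MM401 3 of 10 were called, all higher, against 33.6% called and 17.5% called higher. They were Pdia4 (0.43 ± 0.13, edgeR adjusted p = 0.0106), Xbp1 (0.42 ± 0.08, adjusted p = 0.00027) and Herpud1 (0.24 ± 0.09, adjusted p = 0.0423), and in all 3 every library at 4 h lay above every library at 1 h, as in 24.2% of all tested genes. Xbp1 under MM401 was called without each library in turn. Pdia4 under MM401 was lost without replicate 1 at 1 h (0.34, edgeR adjusted p = 0.0656), and Herpud1 was lost without any 1 of the 6 libraries (0.21 to 0.25) and with the length trend removed (0.17, adjusted p = 0.0816). Under DMSO, Pdia4 was lost without replicate 1 at 1 h (0.31), replicate 3 at 1 h (0.36) or replicate 3 at 4 h (0.34), and Xbp1 without replicate 3 at 1 h (0.20) or replicate 2 at 4 h (0.22). Both DMSO calls, and that of Herpud1, were also lost when the left-out shallow library was kept in the fit, where Pdia4 was at 0.36 (edgeR adjusted p = 0.051), Xbp1 at 0.23 (adjusted p = 0.182) and Herpud1 at 0.21 (adjusted p = 0.115). Creld2 went the other way under MM401, from 2.84, 2.57 and 2.96 CPM at 1 h to 2.11, 2.17 and 2.37 CPM at 4 h without overlap, a pattern of 20.8% of all genes. Its difference of -0.33 ± 0.17 did not pass (edgeR adjusted p = 0.141) but did with the length trend removed (-0.41, adjusted p = 0.0387). Atf4 and Hspa5 were not called between the times, at -0.09 and 0.50 under DMSO and -0.04 and 0.16 under MM401. With the length trend removed Atf4 under MM401 was at -0.16 (edgeR adjusted p = 0.074), and with the replicate block as well it was called lower (-0.16, adjusted p = 0.0499) and Hspa5 under DMSO higher (0.50, adjusted p = 0.0441). In MM401 with water, 4 h against 1 h gave 0 of 10 genes by edgeR, 0 at an unadjusted p under 0.05 and 0 by DESeq2, where 0.867% of all genes were called.

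MM401 against DMSO asked whether inhibition of MLL1 binding to WDR5 altered these genes. By edgeR none of the 10 was called, whether the cultures had 4 h of water, 1 h of bicuculline or 4 h of bicuculline, where 0.0826%, 0.0059% and 0% of all tested genes were called. At an unadjusted p under 0.05 there were 2, 0 and 0 of the 10, beside 2194, 540 and 1309 of all 16959 genes, and DESeq2 called 0, 0 and 0. In water at 4 h all 10 genes had lower means under MM401, with log2 differences from -0.59 ± 0.37 (Hspa5) to -0.07 ± 0.34 (Calr) and a median of -0.24, where all genes had -0.01. With the length trend removed the median over the 10 was -0.075. The 2 genes at an unadjusted p under 0.05 were Xbp1 (-0.21, 95% confidence interval -0.40 to -0.03, edgeR adjusted p = 0.318) and Atf4 (-0.30, -0.58 to -0.03, adjusted p = 0.334). The Xbp1 libraries did not overlap, being lower under MM401, as in 14.5% of all genes. Without DMSO water replicate 1, Atf4 was at -0.45 (adjusted p = 0.0126), in a fit that called 1272 genes in all. In bicuculline at 4 h Atf4 and Herpud1 had all 3 MM401 libraries above all 3 DMSO libraries, as did 6.3% of all genes, with differences of 0.13 ± 0.11 and 0.10 ± 0.09.

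Whether the change with bicuculline differed between the pretreatments was then tested directly, as the log2 change in MM401 cultures less that in DMSO cultures. These interactions share water libraries with the comparisons above. At 4 h, each response against its own 4 h water, all 10 differences were above 0, from 0.16 (Creld2) to 0.53 (Hspa5) on the log2 scale, and edgeR called none. Of the 10, 3 were at an unadjusted p under 0.05, beside 2552 of all 16959 genes, and DESeq2 called none of the 2 genes to which it gave an adjusted p. Those 3 were Xbp1 (0.31, 95% confidence interval 0.07 to 0.56, edgeR adjusted p = 0.25), Atf4 (0.44, 0.07 to 0.80, adjusted p = 0.269) and Herpud1 (0.28, 0.01 to 0.56, adjusted p = 0.322). At 1 h, with water at 4 h for both, the differences ran from 0.08 (Herpud1) to 0.87 (Hspa5). Again edgeR called none, with 1 of 10 at an unadjusted p under 0.05 (Atf4, 0.39, 95% confidence interval 0.02 to 0.75) beside 1326 of all genes, and DESeq2 called 0. In both interactions 0% of all tested genes were called by edgeR. The median over the 10 genes fell from 0.29 to 0.08 at 4 h, and from 0.30 to 0.14 at 1 h, once the length trend was removed. Atf4 passed at 4 h only without DMSO water replicate 1 (0.59, edgeR adjusted p = 0.0112), where 1551 genes were called in all. The calls under MM401 that were missing under DMSO are therefore not shown to differ between the pretreatments.

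The 10 genes differed in how much they varied between replicates. The median within-group coefficient of variation was 29.1% for Hspa5, 26.6% for Calr, 21.6% for Hsp90b1 and 18.8% for Manf, against 6.58% for the median of 13660 genes of at least 1 CPM. It was 15.4% for Creld2, 14.5% for Ddit3 and 12.9% for Pdia4, and only 5.67% for Xbp1, 5.42% for Herpud1 and 4.82% for Atf4. In single groups Atf4 ran from 3.51% (DMSO with bicuculline at 4 h) to 21.7% (DMSO with water). Herpud1 ran from 1.19% (MM401 with bicuculline at 4 h) to 14.3% (DMSO with water). Replicate 1 was the lowest of 3 in 6 of 6 groups for Hsp90b1, Calr and Ddit3 and in 5 of 6 for Hspa5 and Pdia4, while for Manf it was never the lowest. Over the 20 libraries 43 of the 45 pairs of genes had a Pearson correlation of log2 CPM above 0, with a median of 0.50 and a range from -0.10 (Xbp1 with Creld2) to 0.90 (Hsp90b1 with Ddit3). With group means removed the median was 0.47 and the range -0.04 (Xbp1 with Manf) to 0.93, and other pairs of genes were not examined. In these within-group values Hsp90b1 and Calr correlated at 0.93, Calr and Ddit3 at 0.93, Hsp90b1 and Ddit3 at 0.92, and Hspa5 and Hsp90b1 at 0.92. Atf4 and Herpud1 correlated at 0.86, Calr and Pdia4 at 0.85, Hspa5 and Ddit3 at 0.82 and Ddit3 and Creld2 at 0.80. Within groups Atf4 correlated with Hspa5 at 0.64, Pdia4 at 0.60, Hsp90b1 at 0.49 and Calr at 0.38, and Herpud1 with the same genes at 0.37, 0.33, 0.23 and 0.14. Libraries share scaling, depth and replicate number across genes, so these are descriptions over 20 libraries.

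**Figure D4:**
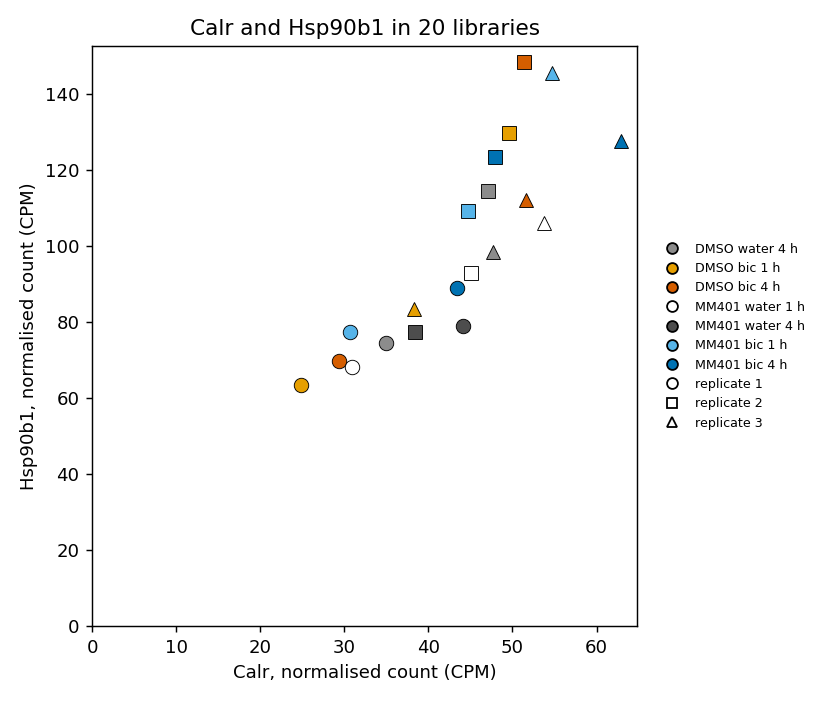
Normalised read counts (CPM) of Calr (horizontal) and Hsp90b1 (vertical) in the 20 libraries, coloured by group, with the replicate number as the shape. The 2 genes rise together within groups, and among groups of 3 libraries every replicate 1 is the lowest of its group for both genes.

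The genes whose log2 CPM followed each member most closely over the 20 libraries were found among all genes with a mean of at least 1 CPM, and likeness over libraries that share groups and scaling says nothing of function. For Hspa5 they were Gnas (r = 0.96), Gsta4 (0.96) and Tceal9 (0.95). For Hsp90b1 they were Bex2 (r = 0.97), Bag1 (0.96) and Cnga1 (0.96), and for Calr they were Psmc3 (0.95), Lrpap1 (0.94) and Gm13498 (0.93). For Pdia4 they were Anxa6 (r = 0.92), Ikbip (0.90) and Tbl2 (0.89). Among the transcription factors, Xbp1 was followed by Hist1h1c (r = 0.94), Amot (0.92) and Hist1h1e (0.92), Atf4 by Eif1 (0.95), Tspyl1 (0.94) and Gabarapl1 (0.93), and Ddit3 by Nars (0.94), Slco6d1 (0.91) and Tpi1 (0.90). Herpud1 was followed by Dbi (r = 0.91), Olig1 (0.91) and Phka1 (0.89), Manf by Chchd1 (0.89), Psmd10 (0.87) and Ly6h (0.86), and Creld2 more loosely by Pole3 (0.75), Ergic3 (0.74) and Pik3ip1 (0.74).

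The other genes of the pathway were taken from 5 lists of general knowledge, 76 genes in all, of which 75 were tested and Ern2 had too few counts. The lists are read beside the same backgrounds of called genes. Genes for the stress sensors and their proteases changed in both directions. Only Atf6b of the sensor genes was called lower against water, the other lower calls being genes for proteases. Of 6 tested genes for sensors and the proteases that cut ATF6, 3 were higher and 2 lower at 1 h under DMSO, 3 and 3 at 4 h, 2 and 2 at 1 h under MM401, and 3 and 3 at 4 h. Eif2ak3, which encodes PERK, rose by 0.83 ± 0.06 and 1.13 ± 0.06 (log2, SE) at 1 h and 4 h under DMSO and by 0.80 ± 0.06 and 0.87 ± 0.07 under MM401. Ern1, which encodes IRE1, rose by 0.37 and 0.62 under DMSO and by 0.36 at 4 h under MM401. Atf6 rose by 0.36 and 0.67 under DMSO and by 0.31 at 4 h under MM401, the last not called without replicate 1 of water (0.22, edgeR adjusted p = 0.137). Its value of 0.20 at 1 h under MM401 (edgeR adjusted p = 0.0345) was 0.04 with the length trend removed and -0.01 with plain library sizes, and ranged from 0.13 to 0.28 without each library in turn, 4 of the 6 without a call. Its relative Atf6b fell by 0.51 and 0.59 under DMSO and by 0.70 at 4 h under MM401, and the protease gene Mbtps1 fell by 0.38, 0.40, 0.39 and 0.29.

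The targets of ATF4 and of the integrated stress response had no gene called lower at 4 h, where 25.5% of all tested genes under DMSO and 21.7% under MM401 were. Of 20 tested, 5 were higher and 6 lower at 1 h under DMSO, 10 higher and 0 lower at 4 h, 8 higher and 3 lower at 1 h under MM401, and 13 higher and 0 lower at 4 h. The 11 called at 1 h under MM401 became 7 without replicate 3 of bicuculline. For 4 h against 1 h of bicuculline, 10 were higher and 3 lower under DMSO and 12 and 3 under MM401. The list's median against water was -0.10, 0.26, 0.21 and 0.55 on the log2 scale in that order. Atf3, a transcription factor also induced by neuronal activity, rose by 3.21 ± 0.10, 2.92 ± 0.10, 3.17 ± 0.10 and 3.13 ± 0.12. Stc2, a secreted glycoprotein, rose at 4 h by 1.76 ± 0.10 under DMSO and 1.68 ± 0.12 under MM401. At 1 h it was at -0.17 under DMSO (edgeR adjusted p = 0.223) and was called lower under MM401 (-0.32, adjusted p = 0.0218). The latter was not called with the length trend removed (-0.21, edgeR adjusted p = 0.126). Chac1, which degrades glutathione, fell by 0.70 ± 0.10 at 1 h under DMSO and rose at 4 h by 0.43 ± 0.10 under DMSO and 0.79 ± 0.11 under MM401, the former not called with plain library sizes (0.15, edgeR adjusted p = 0.286). Trib3, a pseudokinase induced by ATF4 and CHOP, fell by 0.70 ± 0.16 at 1 h under DMSO. Ppp1r15a (GADD34), which restores translation, rose by 0.67 ± 0.14 at 1 h under DMSO and by 0.93 ± 0.14 and 0.86 ± 0.16 at 1 h and 4 h under MM401.

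The chaperones and degradation genes of the ER were called in both directions, as all tested genes were, and at 4 h under MM401 both lists had a smaller share called than the 44.6% of all genes. Of 20 tested ER chaperones, co-chaperones and oxidoreductases, 1 was higher and 8 lower at 1 h under DMSO, 2 and 5 at 4 h, 1 and 2 at 1 h under MM401, and 3 and 4 at 4 h. Of these, the 7 called at 4 h under DMSO became 4 without replicate 1 of bicuculline or without replicate 2 of water. With plain library sizes 11, 8 and 4 of the 20 were called at 4 h under DMSO and at 1 h and 4 h under MM401. The co-chaperone gene Dnajb11 fell by 0.48 ± 0.12 and 0.42 ± 0.12 at 1 h and 4 h under DMSO, and the reductase gene Dnajc10 fell by 0.54 ± 0.07, 0.34 ± 0.07, 0.51 ± 0.07 and 0.45 ± 0.07. Ero1l, the oxidase that recharges disulfide isomerases, fell by 0.40 at 1 h under DMSO and rose at 4 h by 0.38 ± 0.05 under DMSO, a rise not called with plain library sizes (0.11, edgeR adjusted p = 0.119). Of 15 genes of ER-associated degradation, 2 were higher and 4 lower at 1 h under DMSO, 5 and 2 at 4 h, 3 and 4 at 1 h under MM401, and 2 and 4 at 4 h. Dnajb9, an ER co-chaperone induced by XBP1, rose in all 4 comparisons, by 0.62 ± 0.11, 0.57 ± 0.11, 0.63 ± 0.11 and 0.82 ± 0.12, with the DMSO value at 4 h not called with plain library sizes (0.29, edgeR adjusted p = 0.0826). Derl2, a channel component, fell in all 4, by 0.68 ± 0.07, 0.38 ± 0.07, 0.55 ± 0.07 and 0.46 ± 0.08.

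Outside the ER, heat shock genes were called higher more often than lower. Of 14 tested cytosolic and mitochondrial heat shock genes, 9 were higher and 0 lower at 1 h under DMSO, 6 and 2 at 4 h, 8 and 0 at 1 h under MM401, and 8 and 2 at 4 h, with medians of 0.88, 0.47, 0.70 and 0.63. Hspa8, the constitutive cytosolic Hsp70, rose by 1.98 ± 0.09 and 2.03 ± 0.09 at 1 h and by 1.14 ± 0.08 and 1.18 ± 0.10 at 4 h under DMSO and MM401. The near-identical Hspa1a and Hspa1b, the inducible Hsp70 genes, rose at 4 h by 2.90 ± 0.34 and 2.67 ± 0.28 under DMSO. Their means went from 0.196 and 0.293 CPM with water to 1.44 and 1.93 CPM. These values are uncertain because the counts are low and the reads of the pair can be shared. Both were among the 9 called higher at 1 h under DMSO, at 0.552 and 0.557 CPM with bicuculline. There Hspa1b was called in 3 of 6 fits without 1 library.

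**Figure D5:**
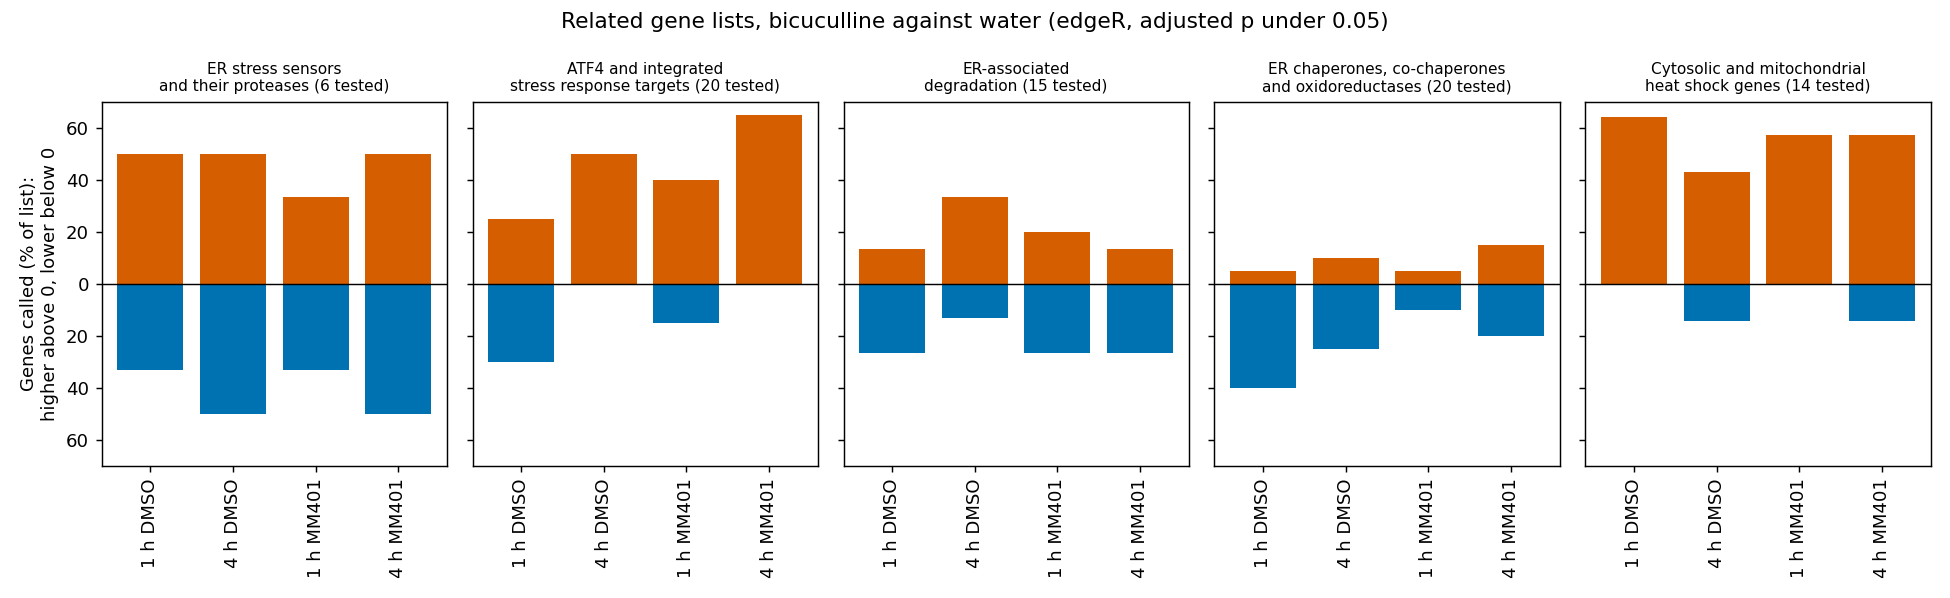
Share of each list's tested genes (% of list) called higher (above 0) and lower (below 0) by edgeR at an adjusted p under 0.05, for bicuculline against water at 1 h and 4 h under DMSO (both against water at 4 h) and MM401. The targets of ATF4 and the integrated stress response have no gene called lower at 4 h (10 and 13 of 20 higher), and the ER chaperones have 8 genes lower and 1 higher at 1 h under DMSO.

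Gene positions as the counting table gives them, on mm10, place Hspa5 at chr2:34772089-34776529, Xbp1 at chr11:5520640-5525993, Atf4 at chr15:80255183-80257545, Ddit3 at chr10:127290792-127296288 and Herpud1 at chr8:94386428-94395371, all on the plus strand, with counts over the whole span of a gene. Calr lies at chr8:84842087-84846931, Hsp90b1 at chr10:86690840-86705444, Pdia4 at chr6:47796140-47813512 and Manf at chr9:106888752-106891938, on the minus strand, and Creld2 at chr15:88819645-88826681 on the plus strand. Calls of the nearest genes on the same chromosome differed from those of the members in some cases and not in others. Rabepk, 2136 bases beyond Hspa5, fell in all 4 comparisons of bicuculline with water, by 0.28, 0.23, 0.43 and 0.41 (log2). Mief1, 1811 bases before Atf4, fell by 0.33, 0.37, 0.30 and 0.20 in the same order. Ccdc117, 2894 bases beyond Xbp1, was called higher at 4 h than at 1 h of bicuculline, as Xbp1 was, by 0.43 under DMSO and 0.58 under MM401. Alg12, which starts 327 bases from Creld2 on the other strand, fell by 0.48, 0.46, 0.35 and 0.61 against water, while Creld2 was not called.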

How the data were processed

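BrU-seq reads were counted over whole genes by the authors, who deposited 1 table of raw counts per gene and library on mm10. Bowtie2, featureCounts, UMI-tools, DESeq2 and deepTools are named, per the submitters' processing notes, with no role. Tool versions, annotation release and use of strand are not given in the sources used here. The table listed 412 genes at more than 1 position, none of them a member. The lower coordinate of the gene, on either strand, lay 1 base below that of RefSeq for all 10 members.

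Counts of 20 libraries, with 1 of 21 left out for its depth, were fitted with edgeR 4.0.16 in R 4.3.3 (TMM scaling, filterByExpr with a minimum count of 10 and total of 15, robust quasi-likelihood, 7 groups, no block). Tests were two-sided with Benjamini-Hochberg adjustment over 16959 genes, and log2 fold changes carry a standard error and a 95% interval from the same fit. The common biological coefficient of variation was 8.77%. DESeq2 1.42.0, other scalings (among them an offset for gene length), filters, the replicate number as a block, and fits without each library in turn were alternatives. The procedure was tested on simulated counts with the same spread for every gene and no replicate effect or gene length trend. That test does not cover genes as variable as Hspa5, Calr and Hsp90b1. Standard errors were worked back from each log2 fold change and its edgeR test statistic, with the spread estimated over the 7 groups together. Intervals thus give the uncertainty of an estimate over these samples. Nothing in the labels beyond the words biological replicate says that the samples came from separate cultures. Pairs of replicates differed by more than sampling noise (chi-square per degree of freedom 6.14 to 78.5 over 19 pairs).

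The members, the pathway lists and the marker lists were chosen with earlier results of these data known. Genes named were the 10 members, some of the pathway genes with the largest called changes (up to 3 higher and 3 lower per list and comparison of bicuculline with water, at 1 CPM or more), and the 3 genes most correlated with each member. Neighbours and overlapping genes were named for their position. Same-numbered replicates deviated together (every correlation over 0.1, from 0.107 to 0.172) only for MM401 against DMSO with 4 h of bicuculline, and the labels do not say what the numbers share. In the other comparisons the correlations ran from -0.229 to 0.241, with at least 1 in each at 0.1 or less. Promoter sequences came from RefSeq, GRCm38.p6.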

Additional observations from a re-analysis of the deposited data

Results flagged for a closer look

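Xbp1 stood on opposite sides of water under the pretreatments at 1 h of bicuculline, though neither difference passed (-0.13, edgeR adjusted p = 0.179 under DMSO, and 0.15, adjusted p = 0.134 under MM401). Under DMSO all 3 bicuculline libraries lay below the mean of the 4 h water libraries, and under MM401 all 3 lay above the mean of the 1 h water libraries, and the differences between group means of log2 CPM were 0.289 apart (the edgeR values come from the fit and differ slightly). The water durations differ between the arms, and the difference was not tested in this form. With 4 h water in both arms, edgeR's interaction was 0.17 ± 0.12 (adjusted p = 0.763). The DMSO value turned to 0.063 with the gene length trend removed, and the MM401 value to -0.062 with plain library sizes.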

How the results depend on the processing

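Of 120 member results (10 genes in 12 comparisons), all 120 kept their side of the threshold and direction with DESeq2's size factors in edgeR and with no filter on low counts, 118 with only the groups compared in the fit, 117 with all 21 libraries and 117 with the replicate number as a block. The gene length offset and plain library sizes changed more. Plain library sizes moved the median of all genes by -0.191, -0.276 and -0.212 for bicuculline against water in DMSO at 1 h and 4 h and in MM401 at 1 h, and the share of higher among called genes from 44.9% to 21.2%, 48.1% to 18.8% and 45.4% to 16.3%. That share went from 51.5% to 40.3% in MM401 at 4 h, and for 4 h against 1 h from 55.7% to 39.2% under DMSO and 52.3% to 65% under MM401. Under that scaling Xbp1, Atf4, Ddit3, Txndc5 and Ubxn4 turned to -0.14, -0.16, -0.084, -0.079 and -0.078 at 4 h under DMSO, and Xbp1, Creld2, Atf6 and Ubxn4 to -0.062, -0.0064, -0.012 and -0.065 at 1 h under MM401. Values within 1 standard error of 0 that also changed sign were Pdia4 (to -0.27) and Herpud1 (to -0.21) at 4 h under DMSO and Pdia4 (to -0.18) at 1 h under MM401, among others. Xbp1 at 1 h under DMSO turned to 0.063 with the length offset, and to 0.062 with the block added, and Atf4 at 4 h under DMSO ranged from -0.021 to 0.257 over the libraries left out in turn, the lowest without DMSO water replicate 1. The cause of these turns was not tested.

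Members called, in DMSO at 1 h and 4 h and MM401 at 1 h and 4 h, were 3 (Pdia4, Xbp1 and Manf, all lower), 1 (Creld2, lower), 1 and 2 with plain library sizes, 2, 5, 4 and 6 (all higher) with the length offset, and 4, 5, 5 and 6 with the replicate block and the length offset together. All genes called in the same order were 8654, 9687, 7817 and 6932 of 16959 with plain library sizes (6818, 7867, 6541 and 4138 lower), 6988, 7967, 6400 and 8031 with the offset, 7499, 8456, 6951 and 8378 with both, 7473, 8316, 6807 and 7680 by DESeq2, and 8035, 8782, 7291 and 7892 with the block alone. DESeq2 called 2, 0, 3 and 5 members and the replicate block alone 1, 0, 3 and 6. DESeq2 added Atf4 in DMSO at 1 h (0.26, adjusted p = 0.047), Hspa5 in MM401 at 1 h (0.83, adjusted p = 0.0251) and Ddit3 in MM401 at 4 h (0.42, adjusted p = 0.0358). The 4 h against 1 h comparison under DMSO kept 0 members with 21 libraries or plain library sizes. Without each library in turn, members called ranged from 0 to 2, 0 to 1 and 2 to 4 for DMSO at 1 h, DMSO at 4 h and MM401 at 4 h, 0 to 2 and 1 to 2 for 4 h against 1 h under DMSO and MM401, and 0 to 1 for MM401 against DMSO in water and for the 4 h interaction.

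Over all genes, 21 libraries called 3745 and 3646 genes for 4 h against 1 h under DMSO and MM401, 19 for 4 h against 1 h of water and 0 for MM401 against DMSO in water. DESeq2 called 166, 13 and 7 for MM401 against DMSO in water, 1 h and 4 h of bicuculline, 275 for water, and 294 and 10 for the 4 h and 1 h interactions. MM401 against DMSO in water gave 4 with plain library sizes and 0 with only its groups, and water 4 h against 1 h gave 328 with only its groups and 232 with the length offset. MM401 against DMSO with 1 h of bicuculline gave 4 with the replicate block, 6 with the length offset and 8 with both, and the block with the offset gave 22 for MM401 in water and 316 for water times. Ranges without each library were 0 to 1272 (MM401 in water), 0 to 2 (MM401 at 1 h of bicuculline), 14 to 140 (water times), 0 to 1551 and 0 to 97 (4 h and 1 h interactions). The block changed no member call in the MM401 comparison where numbers deviated together. Among the pathway lists, 21 libraries called 6 targets of ATF4 and 2 sensors at 1 h under MM401, plain library sizes called 11 degradation genes at 1 h under DMSO, and at 1 h under MM401 5 ER chaperones were called with the replicate block and 6 with the length offset as well.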
